A study of Saccharomyces cerevisiae with 6 samples.

Results

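Hexose transporters of Saccharomyces cerevisiae are the HXT proteins of the plasma membrane that let glucose and other hexoses into the cell by facilitated diffusion. The 9 genes described here are HXT1, HXT2, HXT3, HXT4, HXT5, HXT7, HXT8, HXT10 and HXT14. They are a list chosen by symbol, and 9 of the 5449 S. cerevisiae genes tested. Each was measured by the 1 probe set that the probe table annotates to its symbol. HXT9, HXT11, HXT13, HXT15, HXT17 and GAL2 also have probe sets but are not in the list, and are counted further on as other genes of the family.

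The family is known for its division of labour by glucose supply. Low-affinity carriers such as Hxt1 and Hxt3 serve cells in plentiful glucose, while Hxt2, Hxt4, Hxt6 and Hxt7 carry glucose with higher affinity and are made when it is scarce. The membrane sensors Snf3 and Rgt2 relieve repression by Rgt1 and its partners Mth1 and Std1 at many HXT promoters, and the repressors Mig1 and Mig2 hold down the high-affinity genes when glucose is high. Rapamycin is an inhibitor of TOR complex 1, through which nutrients set the rate of growth.

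Expression was measured on 6 Affymetrix arrays, each with biotin-labelled RNA of yeast growing in the rich medium YPD. For 3 hours the cultures received 20 µM CID 3528206 (a small molecule given by its code alone), 200 nM rapamycin or 1% DMSO, with 2 arrays in each of the 3 groups. All groups carry the strain label BY4741, a haploid laboratory strain of mating type a with deletions of HIS3, LEU2, MET17 and URA3. CID 3528206 and rapamycin were used at different doses. The labels do not say if DMSO was present in their cultures too. They also speak of duplicates without naming separate cultures, so a p-value here reflects only how much these samples spread, which may be technical.

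Values are deposited log2 RMA values, and the median of the tested genes lay between 10.08 and 10.11 in every array. The array also carries 1746 probe sets of another yeast, Schizosaccharomyces pombe, and their 95th percentile, between 4.27 and 4.38 by array, is used as the background. Replicates differed with a standard deviation over genes of 0.267 for CID 3528206, 0.122 for rapamycin and 0.123 for DMSO. In CID 3528206 replicate 1 control probe sets at the 3' end exceeded those at the 5' end by a mean of 1.69 over 7 yeast genes, against 0.91 to 1.14 in the other 5 arrays, and its part in the results was not tested. The strain label was not borne out by its markers: the 4 deleted genes lay between 10.39 and 12.11 in all arrays, the 5 measured genes of alpha cells between 8.59 and 13.47, and the 7 genes of a cells between 4.89 and 8.24. The strain is therefore given only as labelled. At an adjusted p under 0.05, 5 of 5 alpha cell genes were lower after CID 3528206 and 3 of 5 after rapamycin. Over all genes these shares were 24.4% and 26.2%. Of the a cell genes, 5 of 7 were higher after CID 3528206 and 4 of 7 after rapamycin, beside 26.1% and 26.5% of all genes. The other alpha and a cell genes did not pass, and the part of both lists in the results was not tested.

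The probe set of HXT7 has the suffix _s_at, which marks probes shared by related genes, and the other 8 members have probe sets with the suffix _at. HXT6 and HXT7 encode nearly identical proteins and are neighbours in the R64 annotation of S288C, with 0 genes between them. No probe set of its own was named for HXT6 in the probe table, so the value given under HXT7 may hold both transcripts. HXT1 and HXT5 are also neighbours with 0 genes between them, and HXT4 lies beyond 1 further gene. Sequences of the probes, promoters and proteins were not used here.

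After CID 3528206, HXT7 and HXT4 fell most among the 9 members, HXT1 fell, and HXT5 and HXT3 rose. In all, 3 members passed the test as higher and 5 as lower than after DMSO, and HXT8 did not pass. Of these calls, 2 higher and 4 lower were among the 6 members above background in all arrays, and the others were HXT10 and HXT14, which were not above background after DMSO. Of all genes tested, 50.5% passed in this comparison, 26.1% higher and 24.4% lower. The median log2 difference of the members was -0.29, beside -0.0054 over all genes. An error after ± is limma's standard error of a log2 difference with n = 2 arrays per group, and a gene passed at a Benjamini-Hochberg adjusted p under 0.05 over all genes tested. That error uses 1 spread per gene shared by the 3 groups, though CID 3528206 replicates differed more over all genes than the others. With the 4 arrays of this comparison alone, 7 members and 41.8% of all genes passed. HXT2 then no longer passed (limma adjusted p = 0.0721).

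After rapamycin, HXT5, HXT3, HXT2 and HXT4 rose, HXT1 fell, and HXT7 did not pass. These are the 6 members above background in all arrays. Of the other 3, the test called HXT10 higher and HXT14 lower, on signals that were not above background in both DMSO arrays, and HXT8 did not pass. The 5 higher and 2 lower calls among 9 stand beside 52.7% of all genes called, 26.5% higher and 26.2% lower. The median of the members was 0.30, beside -0.020 over all genes. The members' count of 7 depended on single arrays: it was 4 without DMSO replicate 1, 4 without rapamycin replicate 1 and 3 without rapamycin replicate 2. In those fits between 32.9% and 33.3% of all genes passed. HXT1, HXT3 and HXT5 passed in each of the 6 fits that left out 1 array. Both treatments were set against the same 2 DMSO arrays.

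**Figure D1:**
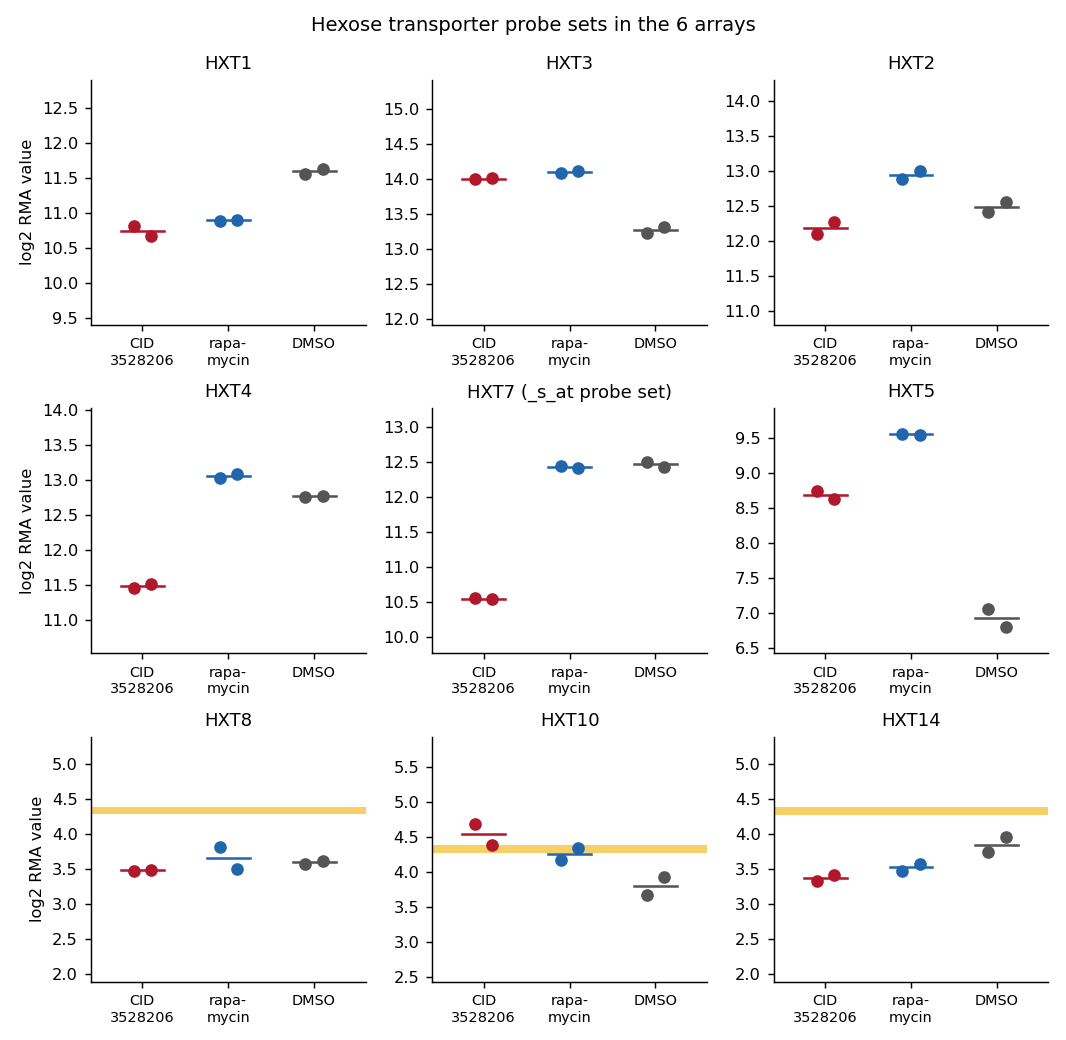
Log2 RMA value of each hexose transporter probe set (vertical axis, every panel spanning the same number of log2 units) in the CID 3528206, rapamycin and DMSO arrays. Points are single arrays, short lines are group means of 2 arrays, and the yellow band is the range of the S. pombe background, from 4.27 to 4.38; HXT7 and HXT4 are low only after CID 3528206, and HXT8 and HXT14 lie under the background in every array.

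HXT3 and HXT1, both low-affinity glucose carriers, moved in opposite directions, and each moved the same way after both treatments. HXT3, which is made over a wide range of glucose, had log2 values of 13.99 and 14.01 after CID 3528206, 14.08 and 14.11 after rapamycin, and 13.22 and 13.31 after DMSO. All 4 treated arrays lay above both DMSO arrays. The rise was 1.67-fold after CID 3528206 (0.74 ± 0.07, limma adjusted p = 0.000488) and 1.78-fold after rapamycin (0.83 ± 0.07, limma adjusted p = 0.000237). The 2 treatments differed by -0.10 ± 0.07, with a 95% interval from -0.26 to 0.07, which did not pass (limma adjusted p = 0.341).

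HXT1, the carrier induced by high glucose, had values of 10.81 and 10.67 after CID 3528206, 10.89 and 10.90 after rapamycin, and 11.56 and 11.63 after DMSO. Both DMSO arrays were above all treated arrays. HXT1 fell by 0.85 ± 0.08 log2 units after CID 3528206 (1.81-fold, limma adjusted p = 0.000464) and by 0.70 ± 0.08 after rapamycin (1.62-fold, limma adjusted p = 0.000781). The difference of CID 3528206 minus rapamycin was -0.16 ± 0.08 with a 95% interval from -0.34 to 0.03 and did not pass (limma adjusted p = 0.196). In bulk RNA, a transcript lost from some cells and one lowered in every cell cannot be told apart.

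Among the carriers of higher affinity, the treatments diverged. The probe set of HXT7, a high-affinity carrier, had 10.55 and 10.53 after CID 3528206, 12.44 and 12.41 after rapamycin, and 12.49 and 12.43 after DMSO. Both CID 3528206 arrays were low, and the rapamycin and DMSO arrays overlapped. The fall after CID 3528206 was 3.78-fold (-1.92 ± 0.07, limma adjusted p = 1.89e-05). Rapamycin minus DMSO was -0.04 ± 0.07, with a 95% interval from -0.20 to 0.12 (limma adjusted p = 0.648). Between the treatments HXT7 was 3.68-fold lower after CID 3528206 than after rapamycin (-1.88 ± 0.07, limma adjusted p = 0.000556).

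HXT4, a carrier of fairly high affinity induced by low glucose, had 11.45 and 11.51 after CID 3528206, 13.03 and 13.08 after rapamycin, and 12.76 in both arrays after DMSO. The 3 groups did not overlap, with rapamycin highest and CID 3528206 lowest. After CID 3528206 the level fell 2.42-fold (-1.27 ± 0.07, limma adjusted p = 7.23e-05). After rapamycin it was 1.23-fold higher (0.30 ± 0.07, limma adjusted p = 0.0113). That small rise no longer passed when any 1 of the DMSO or rapamycin arrays was left out, with adjusted p up to 0.0934 and a range of 0.00334 to 0.0934 over the alternatives. The treatments differed by -1.57 ± 0.07 (2.97-fold lower after CID 3528206, limma adjusted p = 0.000856).

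HXT2, a high-affinity carrier induced by low glucose, had 12.10 and 12.27 after CID 3528206, 12.87 and 13.00 after rapamycin, and 12.41 and 12.55 after DMSO. Its order was that of HXT4, without overlap, but the steps were smaller. After CID 3528206 it fell by 0.29 ± 0.09 (limma adjusted p = 0.0410), and after rapamycin it rose by 0.46 ± 0.09 (limma adjusted p = 0.00838). The fall did not pass without CID 3528206 replicate 1 (-0.21, adjusted p = 0.0890) or without any 1 of the DMSO or rapamycin arrays, and its adjusted p ranged from 0.0106 to 0.226 over the alternatives. The rise did not pass without DMSO replicate 1 (adjusted p = 0.0649) or rapamycin replicate 2 (0.0655), with a range of 0.00201 to 0.0655. CID 3528206 minus rapamycin was -0.75 ± 0.09 for HXT2 (1.68-fold lower, limma adjusted p = 0.00714).

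HXT5, a carrier of moderate affinity known for its expression in slowly growing and starved cells, rose more than any other member after each treatment. It had 8.73 and 8.63 after CID 3528206, 9.55 and 9.54 after rapamycin, and 7.05 and 6.79 after DMSO. No group overlapped another, and rapamycin gave the highest values. HXT5 rose 3.39-fold after CID 3528206 (1.76 ± 0.10, limma adjusted p = 0.000103) and 6.19-fold after rapamycin (2.63 ± 0.10, limma adjusted p = 2.17e-05). By size of rise it was number 72 after CID 3528206 and number 45 after rapamycin among the 5449 genes. It was 1.82-fold lower after CID 3528206 than after rapamycin (-0.87 ± 0.10, limma adjusted p = 0.00576). HXT1, its neighbour, fell in the same arrays.

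**Figure D2:**
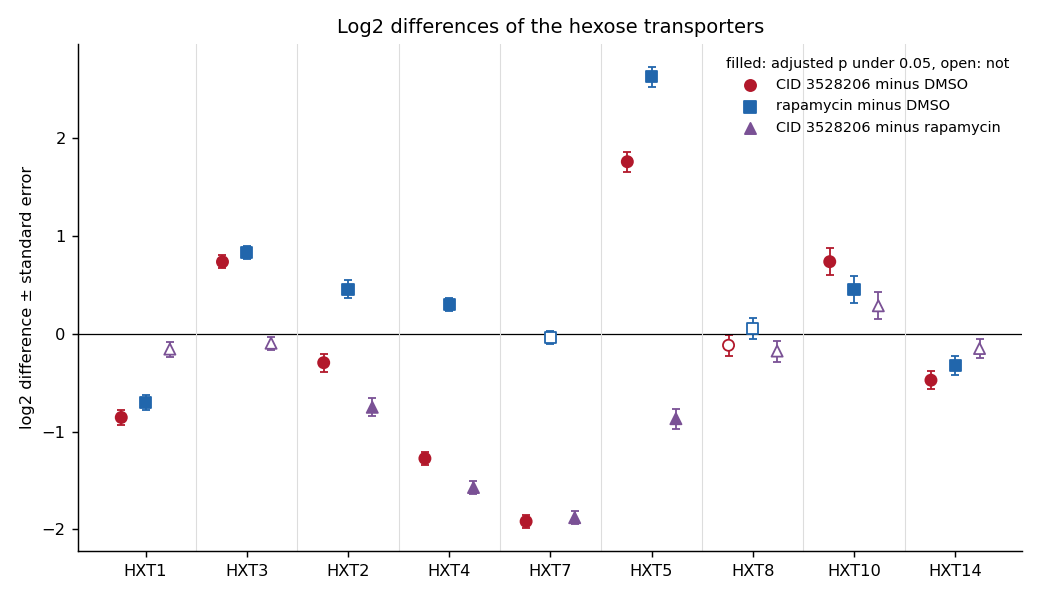
Log2 difference of each hexose transporter (vertical axis) for CID 3528206 minus DMSO (circles), rapamycin minus DMSO (squares) and CID 3528206 minus rapamycin (triangles), with limma standard errors as bars; filled symbols passed at an adjusted p under 0.05. HXT7 and HXT4 reach -1.92 and -1.27 after CID 3528206, where rapamycin gave -0.04 and 0.30, while HXT5 is highest after rapamycin at 2.63.

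HXT8, HXT10 and HXT14, minor members of the family, lay near or under the background. HXT8 had 3.47 and 3.48 after CID 3528206, 3.80 and 3.50 after rapamycin, and 3.57 and 3.61 after DMSO, and passed in no comparison (limma adjusted p from 0.280 to 0.669). It was under the background in all arrays, and no fold is given. HXT14, reported to carry galactose, had 3.32 and 3.42 after CID 3528206, 3.47 and 3.57 after rapamycin, and 3.74 and 3.95 after DMSO. These values too were all under the background, with DMSO highest and no overlap of treated and DMSO arrays. The fit called HXT14 lower after CID 3528206 (-0.47 ± 0.10, limma adjusted p = 0.00825) and after rapamycin (-0.32 ± 0.10, limma adjusted p = 0.0300), and these are differences between signals that were not above background. The first call ended without DMSO replicate 2 (adjusted p = 0.0604, range 0.00271 to 0.0604), and the second without DMSO replicate 2 or either rapamycin array (up to 0.186, range 0.00543 to 0.186).

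HXT10 crossed the background. It had 4.69 and 4.39 after CID 3528206, 4.16 and 4.33 after rapamycin, and 3.67 and 3.92 after DMSO, so that 2 CID 3528206 arrays, 1 rapamycin array and 0 DMSO arrays exceeded the background of their own array. Against the DMSO background the group mean of HXT10 was at least 1.11-fold higher after CID 3528206, with measured group means of 4.54 and 3.80 (limma adjusted p = 0.00613). The bound takes, for each DMSO array, the higher of its background and its HXT10 value. It rests on CID 3528206 replicate 1, the array with the wide gap between 3' and 5' controls. Replicate 2, at 4.39, was near the DMSO backgrounds of 4.38. With the tested genes quantile-normalized again, the difference after CID 3528206 was 0.52 (limma adjusted p = 0.0410). After rapamycin the mean was 4.25, under the DMSO background, so no fold is given and the measured difference of 0.45 ± 0.14 (limma adjusted p = 0.0334) is one between signals near or under the background. It was 0.24 after quantile normalization of the tested genes, where it did not pass (adjusted p = 0.267), nor did it pass without DMSO replicate 1 or either rapamycin array (range 0.0081 to 0.267 over the alternatives).

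Set directly against rapamycin, CID 3528206 gave lower HXT7, HXT4, HXT5 and HXT2. Of the 9 members 0 passed as higher, 4 as lower and 5 did not pass in limma's test, and at an unadjusted p under 0.05 the counts were again 0 higher and 4 lower. Over all genes 18.8% passed, 9.32% higher and 9.43% lower. With the 4 arrays of this comparison alone, 4 members and 7.29% of all genes passed. The members' median was -0.18, beside -0.0029 over all genes. That median is the value of HXT8, which was under the background in all arrays. All 4 lower calls were among the 6 members above background in all arrays. HXT7 had the lowest p-value of the 5449 genes in this comparison and HXT4 the next, at ranks 1 and 2, and by size they were the 5th and 10th largest falls. Without CID 3528206 replicate 2 their ranks by p-value were 2 and 4. Without CID 3528206 replicate 1, the array with the wide gap between 3' and 5' controls, the differences were -1.89 for HXT7 and -1.54 for HXT4.

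The count of 4 fell to 2 without rapamycin replicate 1 and to 2 without rapamycin replicate 2, where 1.93% and 1.76% of all genes passed. HXT7 and HXT4 still passed in both fits. HXT5 did not (adjusted p = 0.0579 and 0.0618, range 0.00313 to 0.0618 over the alternatives), and neither did HXT2 (0.0530 and 0.0783, range 0.00177 to 0.0783). HXT10 passed as higher without CID 3528206 replicate 2 (0.44, adjusted p = 0.0296), against 0.29 ± 0.14 (limma adjusted p = 0.180) with all arrays, and its adjusted p ranged from 0.0296 to 0.506.

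**Figure D3:**
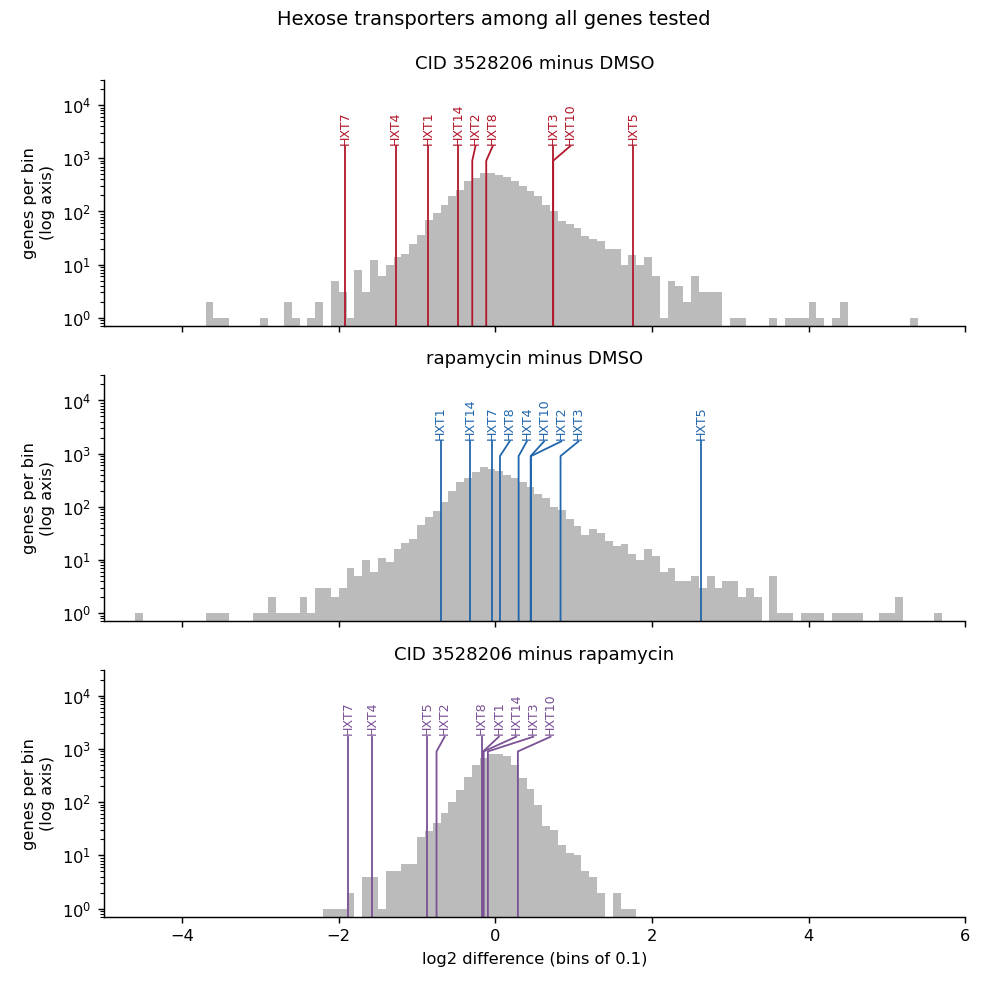
Number of genes per bin of 0.1 log2 units (log vertical axis) against the log2 difference for CID 3528206 minus DMSO, rapamycin minus DMSO and CID 3528206 minus rapamycin, over 5449 genes, with a line for each hexose transporter. In the lowest panel HXT7 at -1.88 and HXT4 at -1.57 lie in the thin left tail, while HXT1, HXT3, HXT8, HXT10 and HXT14 lie within the bulk of the genes.

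Among the remaining family genes, only GAL2 passed against DMSO. Of 9 genes of that list, 6 had a probe set, and HXT6, HXT12 and HXT16 had none in the probe table. After CID 3528206 and after rapamycin alike, 0 passed as higher, 1 as lower and 5 did not pass, with limma. Of all genes, 50.5% passed after CID 3528206 and 52.7% after rapamycin. At an unadjusted p under 0.05 the counts were 0 higher and 1 lower after CID 3528206 and 2 higher and 1 lower after rapamycin. GAL2, the galactose permease gene, fell after both treatments (-0.48 ± 0.08 after CID 3528206, limma adjusted p = 0.00485, and -0.65 ± 0.08 after rapamycin, limma adjusted p = 0.00132). HXT13 and HXT15 were under the background in all 6 arrays, and HXT9, HXT11, HXT17 and GAL2 were above it. Several of these genes are close copies of one another, so probes may read more than 1 of them, and the probe sets of HXT9 differed in direction after CID 3528206. Between the treatments 0 of the 6 passed, beside 18.8% of all genes, with 1 higher and 0 lower at an unadjusted p under 0.05. The list medians were 0.07 after CID 3528206, -0.07 after rapamycin and 0.05 between the treatments.

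The list of glucose sensing and induction held 10 genes. After CID 3528206, 1 of the 10 rose, 4 fell and the other 5 missed the threshold, while after rapamycin 2 rose, 4 fell and 4 missed it. These 5 and 6 calls among 10 are near the shares over all genes, 50.5% after CID 3528206 and 52.7% after rapamycin. RGT2, the sensor of high glucose, rose 2.88-fold after CID 3528206 (1.52 ± 0.08) and 2.35-fold after rapamycin (1.24 ± 0.08). MTH1, whose product holds Rgt1 on HXT promoters when glucose is low, had 9.48 and 9.95 after CID 3528206, 10.82 and 10.86 after rapamycin, and 9.91 and 9.99 after DMSO. Only the rapamycin arrays stood apart for MTH1, which rose by 0.89 ± 0.15 after rapamycin (limma adjusted p = 0.00390). CID 3528206 minus rapamycin was -1.12 ± 0.15 for MTH1 (limma adjusted p = 0.00866), a call that ended without either rapamycin array (up to 0.0794, range 0.000477 to 0.0794). In that comparison 2 of the 10 genes were higher, 1 was lower and 7 did not pass, beside 18.8% of all genes called. The list medians were -0.18 after CID 3528206, -0.12 after rapamycin and 0.17 between the treatments.

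Glucose repression was represented by 13 genes. After CID 3528206, 4 rose, 4 fell and 5 missed the threshold, and after rapamycin 4 rose, 3 fell and 6 missed it. These counts too, 8 and 7 calls among 13, lie near the 50.5% and 52.7% of all genes called. MIG2, which encodes a repressor of glucose-repressed genes, rose 3.20-fold after CID 3528206 (1.68 ± 0.18) and 5.71-fold after rapamycin (2.51 ± 0.18). MIG1, for the main repressor, had 9.86 and 10.29 after CID 3528206, 11.15 in both arrays after rapamycin, and 9.73 and 9.95 after DMSO. It rose after rapamycin (1.31 ± 0.15, limma adjusted p = 0.000947), and CID 3528206 minus rapamycin was -1.07 ± 0.15 (limma adjusted p = 0.00985), a call that ended without either rapamycin array (up to 0.0831, range 0.000943 to 0.0831). Between the treatments 1 of the 13 was higher, 2 were lower and 10 did not pass, beside 18.8% of all genes called. List medians were 0.13 after CID 3528206, 0.13 after rapamycin and -0.06 between them.

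The kinases that trap hexoses in the cell fell or did not pass. Of the 4 measured, 3 fell and 1 missed the threshold after CID 3528206, while 2 fell and 2 missed it after rapamycin, and 0 were higher at an unadjusted p under 0.05 in limma's test. With only 4 genes, these counts are read no further against the 50.5% and 52.7% of all genes called. EMI2, a glucokinase relative, fell by 1.68 ± 0.11 after CID 3528206 and by 1.50 ± 0.11 after rapamycin. HXK1, the hexokinase isoenzyme repressed by glucose, had 11.85 and 11.80 after CID 3528206, 12.73 and 12.82 after rapamycin, and 12.98 and 12.89 after DMSO. Like HXT7 and HXT4 it was lower after CID 3528206 than after rapamycin (-0.95 ± 0.07, limma adjusted p = 0.00259). It was the 1 kinase of the 4 that passed between the treatments, where 18.8% of all genes passed. The list medians were -0.81 after CID 3528206, -0.25 after rapamycin and -0.20 between the treatments.

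Of 7 genes for the ubiquitin ligase Rsp5 and adaptors that direct it to membrane transporters, 5 rose, 0 fell and 2 did not pass after CID 3528206, and 5 rose and 2 fell after rapamycin, beside 26.1% of all genes called higher after CID 3528206 and 26.5% after rapamycin. At an unadjusted p under 0.05, 0 were lower after CID 3528206. CSR2, an arrestin-related adaptor, rose by 0.80 ± 0.09 after CID 3528206 and by 1.49 ± 0.09 after rapamycin. ROG3, another adaptor of this kind, rose by 1.01 ± 0.13 after CID 3528206. The medians were 0.68 after CID 3528206, 0.64 after rapamycin and 0.11 between the treatments. In that last comparison 1 gene was higher, 1 lower and 5 did not pass, beside 18.8% of all genes called. Among 6 measured of 7 other sugar porters, such as the maltose permeases, 1 rose, 1 fell and 4 missed the threshold after each treatment. Of all genes, 50.5% were called after CID 3528206 and 52.7% after rapamycin. The medians of these porters were -0.06 after CID 3528206 and -0.09 after rapamycin. The gene that rose was MPH2, a permease of alpha-glucosides, by 0.39 ± 0.10 after CID 3528206 and by 0.32 ± 0.10 after rapamycin, on a probe set with the suffix _s_at. When the tested genes were quantile-normalized again, neither difference of MPH2 passed, at 0.0011 after CID 3528206 (adjusted p = 0.992, range 0.00803 to 0.992 over the alternatives) and -0.14 after rapamycin. Between the treatments 0 of these 6 passed, beside 18.8% of all genes, with 2 higher and 1 lower at an unadjusted p under 0.05.

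**Figure D4:**
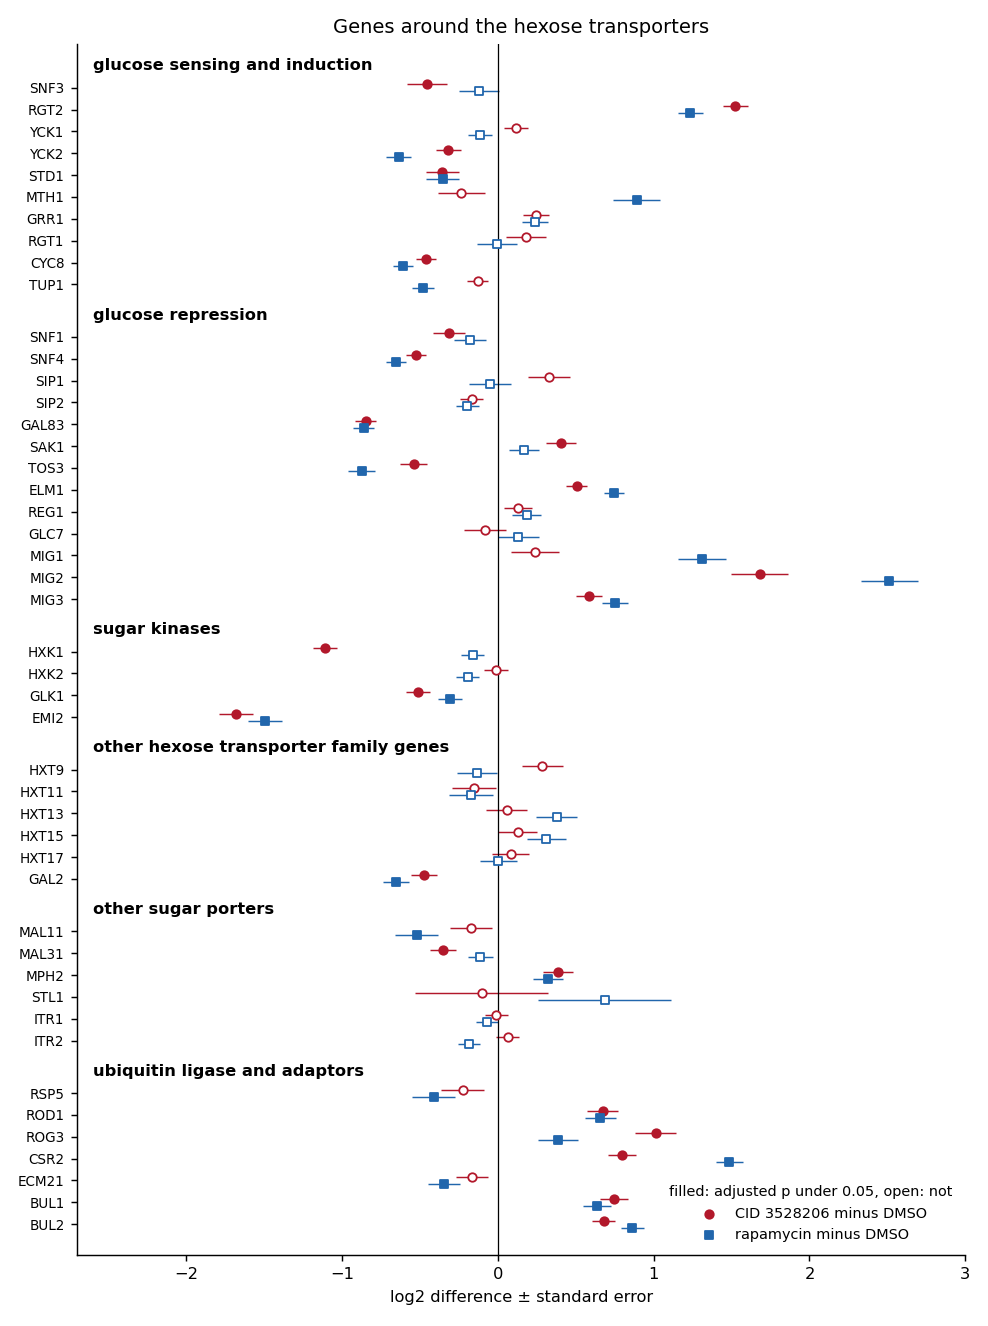
Log2 difference with limma standard error (horizontal axis) of each gene of the 6 lists around the hexose transporters, for CID 3528206 minus DMSO (circles) and rapamycin minus DMSO (squares); filled symbols passed at an adjusted p under 0.05. MTH1 and MIG1 are filled only for rapamycin, at 0.89 and 1.31, and HXK1 only for CID 3528206, at -1.11.

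The profiles of the members were also compared with those of all other genes over the 6 arrays, after subtracting each gene's DMSO mean, by the root mean square distance in log2 units. HXT7 had 0 genes within 0.25 and HXT4 had 2. The nearest gene to both was ALD6, the cytosolic aldehyde dehydrogenase gene, at 0.39 from HXT7 and 0.22 from HXT4, which differed by -1.27 after CID 3528206 and by -0.03 after rapamycin. HXT4 and HXT7 were 0.42 from each other. For HXT5, 11 genes lay within 0.25, the nearest being AMS1, the vacuolar mannosidase gene, at 0.11.

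Profiles of smaller size had many near matches. The nearest gene to HXT3 was GAS5, which encodes a cell wall glucan-remodelling enzyme, at 0.03, with 417 genes within 0.25. The nearest to HXT1 was AYR1 of lipid synthesis at 0.05, with 348 within 0.25, and the nearest to HXT2 was the open reading frame YIL089W at 0.05, with 327. Near the background, HXT10 was nearest to YKR005C at 0.08, HXT14 to the tRNA splicing gene SEN2 at 0.04, and HXT8 to GPI12 of glycolipid anchor synthesis at 0.05.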

How the data were processed

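RNA of 6 yeast samples was hybridised to Affymetrix arrays after a 3' in vitro transcription labelling of 100 ng of total RNA, per the labels' protocols. The deposited values are on the log2 scale, 1 per probe set, and were made by the authors with RMA, per the submitters' processing notes. RMA corrects background, quantile-normalizes arrays and summarises probes, so values are relative to all signal on an array. The labels name neither its software nor its settings.

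The table held 10928 probe sets. Of these, 5498 named 1 S. cerevisiae gene in the probe table, with 12 symbols updated through the R64 annotation. For 47 genes with several probe sets the one with the highest mean was used. One linear model, with 1 mean for each of the 3 groups, was fitted to all 6 arrays (limma 3.58.1, lmFit and eBayes, R 4.3.3), which leaves 3 residual degrees of freedom. The two-sided p-values were adjusted over 5449 genes by Benjamini-Hochberg. The 9 members in 3 comparisons gave 27 tests. The fit was tested on simulated data. The members and gene lists were chosen with earlier results of these data known. Genes named with a difference are the members, up to 3 genes a list with the largest differences in that comparison, and the nearest profile of each member. In all, 17 alternatives were tried, each changing 1 choice (trend and robust, 2 settings of the variance prior, were changed together): single arrays left out, a replicate block, the 4 arrays of a comparison alone, other scalings, filters, probe set rules and priors, and a stricter threshold. Promoter motifs and protein identities, planned at first, were not analysed here. The number of arrays limits the precision.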

Additional observations from a re-analysis of the deposited data

How the results depend on the processing

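Of 435 values of single members under 17 alternatives, 400 kept their direction and side of the threshold or stayed uncalled, 34 lost the call, 1 gained it and 0 reversed. Many of these alternatives changed the error, the genes tested or the threshold but not a member's difference, so no reversal was possible in them. Leaving out 1 array in turn gave 6 to 8 members called after CID 3528206, 3 to 7 after rapamycin and 2 to 5 between the treatments, against 8, 7 and 4 with all arrays. With 1 in 3 genes left out, those of lowest mean, 5 members stay in the test. Of these, 5 were called after CID 3528206 and 4 after rapamycin, beside 53.2% and 55.9% of the 3632 genes left. An adjusted p under 0.01 left 4 called after rapamycin, beside 34.4% of all genes. Where genes were tested with both arrays of each group compared, the share called ranged from 31.3% to 56.6% for CID 3528206. It ranged from 34.4% to 67.9% for rapamycin and from 3.93% to 27.7% between the treatments. This share also changed in the fits that left out 1 array of a group compared. With all 10928 probe sets tested in place of genes, 21.4% of probe sets passed for CID 3528206, 23.6% for rapamycin and 3.74% between the treatments. With the replicate block the members' counts were again 8, 7 and 4, and all genes called were 3082 for CID 3528206, 3195 for rapamycin and 1510 between the treatments, against 2752, 2873 and 1022 without it. Deviations of same-numbered arrays correlated by 0.25 to 0.43 between groups, but the labels do not say that numbers mark pairs. Of the list genes, only the 3 of each list with the largest differences in a comparison were compared under the alternatives, 54 cases in all. Among these the block added the calls of HXT13 after rapamycin (under the background, adjusted p from 0.0146 to 0.270 over the alternatives) and ITR2 between the treatments (0.0293 to 0.274). It ended or added no other call of a member or of these list genes, and the remaining list genes were not compared. Of 884 values of these list genes, 802 kept their call or stayed uncalled, 52 lost the call, 29 gained it and 1 reversed. HXT11, HXT13, RSP5 and STL1 changed sign in some alternatives where neither fit called them, and this was not counted as a reversal. The reversal was MPH2 after rapamycin, 0.32 in the fit and -0.14 with quantile-normalized values (limma adjusted p = 0.206, range 0.00418 to 0.206 over the alternatives). The cause was not tested. Signal over background limits HXT8, HXT10 and HXT14.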
